A study of Mus musculus with 4 samples.

Results

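The genes described here are 10 genes of the unfolded protein response (UPR), read in primary chondrocytes on 4 mouse expression arrays. They are the chaperones Hspa5 (BiP) and Hsp90b1 (Grp94), the co-chaperone Dnajb9, the sensors Ern1 (IRE1α) and Atf6, the transcription factors Xbp1, Atf4, Ddit3 (CHOP) and Creb3l2, and the pseudokinase Trib3. A probe was taken as a member when the accession printed for it in the array files is a RefSeq transcript of 1 of these genes. This gave 12 probes of 10 genes, out of 55681 probes and 20660 genes with a symbol. Atf4 and Dnajb9 were each read by more than 1 probe.

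The cells came from 6-day-old C57BL/6J mice that were either Rela fl/fl, the controls, or Prrx1-Cre; Rela fl/fl, called cKO by the submitters. All of these mice carry the floxed Rela allele, and Prrx1-Cre is driven by a promoter active in limb mesenchyme, from which limb chondrocytes arise. The cells were cultured for 3 days with 10 ng/mL tumour necrosis factor (TNF) or without it. Each of the 4 combinations was hybridised to 1 array, and whether an array held cells of 1 or several animals is not stated in the sources used here. There is therefore no replicate check, and no test between conditions was run.

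Secretory cells such as chondrocytes fold large amounts of collagen and other matrix proteins in the endoplasmic reticulum (ER). When unfolded proteins accumulate there, BiP is released from the sensors IRE1α, PERK (Eif2ak3) and ATF6. IRE1α then splices the Xbp1 mRNA, ATF6 is cut into a transcription factor, and PERK phosphorylates the translation factor eIF2α, which favours translation of ATF4. These factors raise transcription of chaperones, of genes for ER-associated degradation (ERAD), and of the stress genes Ddit3 and Trib3. BBF2H7, the product of Creb3l2, is a related membrane-bound factor known for raising secretory-pathway genes in cartilage. An array reads transcript levels and does not read splicing of Xbp1, cleavage of ATF6 or phosphorylation of the sensors.

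Many ER chaperone genes carry the ER stress response element in their promoter, which reads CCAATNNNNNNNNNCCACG, where N is any base. In 32851 promoter windows of the RefSeq annotation of GRCm38.p6, each from 250 bases before to 50 bases after a start site, this element stood on either strand in 39 windows, or 0.119%. Of the 10 genes, 9 had a window, and 2 of these held the element, Hspa5 and Hsp90b1. Their 250 bases before the start site are printed because they show the element whole, 5′ to 3′ on the strand of the gene, with its fixed bases in capitals. The first lies at chr2:34771840-34772089 on the plus strand and the second at chr10:86705445-86705694 on the minus strand.
Hspa5: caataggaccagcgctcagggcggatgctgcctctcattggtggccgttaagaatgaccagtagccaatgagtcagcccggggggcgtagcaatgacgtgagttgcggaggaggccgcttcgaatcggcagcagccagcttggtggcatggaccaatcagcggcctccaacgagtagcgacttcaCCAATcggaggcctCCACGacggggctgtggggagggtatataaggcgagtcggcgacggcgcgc
Hsp90b1: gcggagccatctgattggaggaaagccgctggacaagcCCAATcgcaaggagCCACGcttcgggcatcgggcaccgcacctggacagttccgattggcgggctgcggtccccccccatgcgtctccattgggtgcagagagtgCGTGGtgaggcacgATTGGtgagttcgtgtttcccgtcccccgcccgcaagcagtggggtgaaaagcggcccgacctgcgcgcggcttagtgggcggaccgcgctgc
In Hspa5 the element ran from base -65 to base -47 before the start site. Hsp90b1 held 2 copies, 1 on the strand of the gene from -212 to -194 and 1 on the opposite strand from -107 to -89, where the capitals read as the reverse complement. Read along its own strand, each copy differed in the 9 bases between the fixed ends.
Hspa5 copy: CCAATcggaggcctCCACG
Hsp90b1 copy on the strand of the gene: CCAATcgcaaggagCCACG
Hsp90b1 copy on the opposite strand: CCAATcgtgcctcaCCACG
Among the other ER chaperones and folding enzymes, 6 of 17 genes with a window held the element (Calr, Canx, Creld2, Dnajc3, Ero1b and Pdia6), and 2 of 13 ERAD genes did (Derl3 and Syvn1). The parts of the element were common on their own. CCAAT stood in 37.4% of all windows and in 6 of the 9 windows of the genes described, and CCACG stood in 32.8% and in 5 of the 9. Windows with the whole element are included in both counts. The UPR element core TGACGTGG was in 0.676% of all windows and the ATF4 composite element TGATGNAAT in 0.965%, and neither was in any of the 9 windows.

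All 12 probes were well above background on all 4 arrays, so every gene was measured in each condition. A signal is given below as a multiple of the 75th percentile of the intensities of its own array, and a difference is the log2 ratio of 2 signals of 1 probe. Signals of different probes are not compared. The error available is the spread among 10 spots of 1 probe on 1 array, pooled over 173 to 215 such probes, all 10 spots well above background, which came to an SD of 0.0947 to 0.100 on the log2 scale. A difference between 2 single spots therefore has a technical SD of 0.136 to 0.141, called 1 technical spread, and 2 spreads are 0.271 to 0.281. The spread leaves out variation between cultures and animals, and it was not estimated separately for dim probes.

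Several features of the arrays stand beside these values. The signal of the targeted gene Rela was 28.3 and 34.7 in control cells without and with TNF, and 33.9 and 40.2 on the cKO-labelled arrays, so the array signal does not show the deletion. The paper reports PCR evidence of recombination in Prrx1-Cre; Rela fl/fl chondrocytes and RT-PCR evidence that the deletion is tissue-specific. Where the Rela probe lies relative to the deleted exons is not known here, and arrays are therefore named by their label throughout, control (Rela fl/fl) or cKO. Xist was well above background on both control arrays and on neither array labelled cKO, and the Y-linked Ddx3y and Eif2s3y were 1.49 to 1.83 higher on the log2 scale on the latter, so sex composition and genotype label cannot be told apart. Ddx3y and Eif2s3y were also well above background on both control arrays. Groups of neighbouring spots that were bright on a single array, called patches, held 1.04% to 10.7% of the spots of an array. Of the 48 readings of the 12 probes, 4 lay in a patch and 0 were saturated or outliers. The chondrocyte markers Col2a1, Acan, Sox9 and 7 others were well above background on all 4 arrays, as were 8 of 8 fibroblast markers and 6 of 9 leukocyte markers measured, among them Csf1r and Itgam, while the leukocyte marker Ptprc was on none.

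The 10 genes showed little difference with TNF in control cells. The signal of Hspa5, the main ER chaperone (NM_022310), was 112.6 without TNF and 113.7 with it. Hsp90b1, the second large chaperone (NM_011631), had signals of 72.6 and 77.0. For Dnajb9, whose protein holds IRE1α inactive, the signals were 3.73 and 4.04 (NM_013760, probe A_51_P198835). These correspond to log2 differences of 0.01, 0.08 and 0.11, each below 1 technical spread.

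The sensors Atf6 and Ern1 and the factors Xbp1, Atf4 and Creb3l2 were also within 1 technical spread with TNF in control cells. Atf6 (NM_001081304) read 0.882 without TNF and 0.907 with it, and Ern1 (NM_023913) read 0.831 and 0.774. Xbp1 (NM_013842) read 44.0 and 42.9, from a probe that cannot be assigned here to the spliced or the unspliced form. Atf4 (NM_009716) read 245.9 and 233.3 with 1 probe (A_55_P1979728) and 8.65 and 8.27 with the other (A_51_P464238), so both probes gave a slightly lower signal with TNF. Creb3l2 (NM_178661) read 2.85 and 2.68, the latter from a spot in a patch.

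The stress genes downstream of ATF4 were not higher with TNF in control cells either. Ddit3 (NM_007837), a transcription factor known for its part in death of cells under lasting ER stress, read 18.6 without TNF and 16.5 with it. Trib3 (NM_175093), whose product binds the kinase Akt, read 82.4 and 77.5. The log2 differences were -0.17 and -0.09. The difference of Ddit3 was the largest in size among the 10 genes in this comparison, with the brighter probe of Atf4 and Dnajb9, and exceeded 1 technical spread but not 2.

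None of the 10 genes was past 2-fold with TNF in control cells, where 6.64% of 23406 genes tested were. None was past 1.5-fold, where 10.8% were, and none was past 2 technical spreads, where 9.39% of 20621 genes were higher and 9.80% were lower. The 2-fold and 1.5-fold shares include genes well above background on only 1 array of the pair. With both arrays required, as holds for the 10 genes, 208 of 20621 genes were higher past 2-fold and 320 lower. The median log2 difference was -0.06, with 4 genes above 0 and 6 below, beside a median of 0.01 over all genes tested. Genes known to respond to TNF read higher on the same arrays. Of 10 NF-κB target genes kept as a check on the treatment, 9 were higher past 1.5-fold, among them Ccl2 by 5.02, Mmp3 by 4.64 and Nfkbia by 1.51 on the log2 scale.

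**Figure D1:**
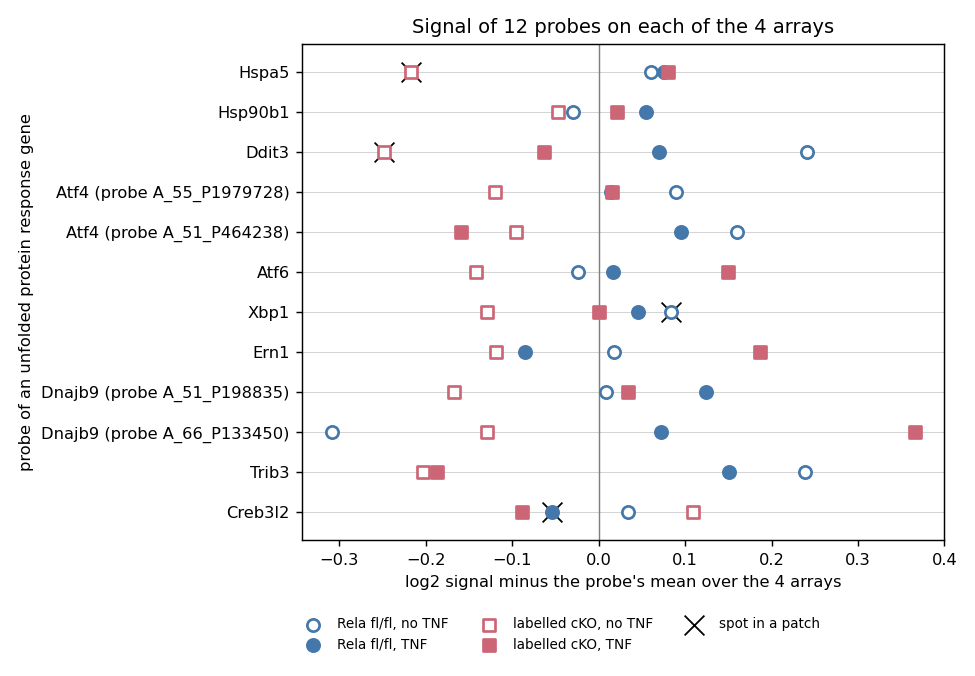
Log2 signal of each of the 12 probes on the 4 arrays, as the distance from the mean of that probe over the arrays (x axis). Blue circles are control (Rela fl/fl) arrays and red squares cKO-labelled arrays, open without TNF and filled with TNF, and crosses mark spots in a patch. With the probe used for each gene, the cKO-labelled array without TNF (open square) gave the lowest signal for 9 of 10 genes and the highest for Creb3l2.

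On the cKO-labelled arrays, most of the genes read higher with TNF, by small amounts. Hspa5 read 92.9 without TNF and 114.1 with it, a log2 difference of 0.30. Atf6 read 0.812 and 0.995, a difference of 0.29, and Ern1 read 0.757 and 0.934, a difference of 0.30. These 3 genes were past 2 technical spreads, and each lay just past that limit of 0.276. The spot of Hspa5 on the array without TNF lay in a patch.

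The other chaperones and factors differed less on the cKO-labelled arrays. Dnajb9 read 3.30 without TNF and 3.80 with it, Xbp1 read 38.0 and 41.5, and Ddit3 read 13.3 and 15.1. The brighter Atf4 probe read 212.7 and 233.5, while the other Atf4 probe went the other way, from 7.25 to 6.93. Hsp90b1 read 71.7 and 75.2, and Trib3 read 60.7 and 61.4. Creb3l2 was the exception in sign, with signals of 3.00 without TNF and 2.62 with it, a log2 difference of -0.20.

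None of the 10 genes was past 2-fold with TNF on the cKO-labelled arrays, where 5.02% of 24902 genes were, and none was past 1.5-fold, where 10.6% were. With both arrays required to be well above background, 100 of 22496 genes were higher past 2-fold and 479 lower. Past 2 technical spreads, 3 of the 10 genes were higher and 0 lower, beside 11.1% and 12.7% of all genes. The median of the 10 genes was 0.16, with 9 genes above 0 and 1 below, beside 0.06 over all genes tested. Of the 20481 genes well above background on all 4 arrays, 36.3% were below 0 in this comparison. Of the 10 NF-κB targets, 5 were higher past 1.5-fold on these arrays, Ccl2 by 3.17.

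The values with TNF on the cKO-labelled arrays depended on the scaling between arrays. With no scaling, the median of all genes moved from 0.06 to -0.05, and with the authors' scaled values to -0.06. The median of the 10 genes relative to all genes was 0.10 with each of these and 0.01 after quantile normalization. None of Hspa5, Atf6 and Ern1 was past 2 technical spreads with no scaling or with the authors' scaled values, although all 3 differences stayed above 0 (0.12 to 0.30 for Hspa5, 0.18 to 0.31 for Atf6 and 0.19 to 0.33 for Ern1). Hsp90b1, Trib3 and Xbp1 changed sign under at least 1 other scaling, and 7 of 10 genes were above 0 with no scaling and 6 after quantile normalization.

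**Figure D2:**
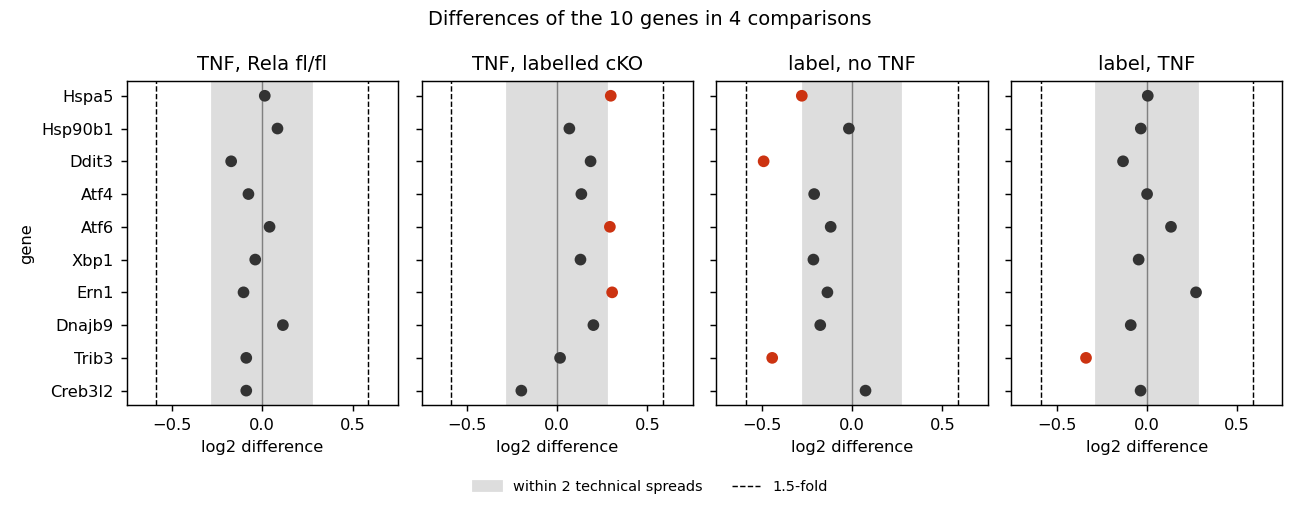
Log2 difference of each of the 10 genes (rows) in 4 comparisons (panels), TNF over no TNF and cKO label over Rela fl/fl. Grey bands are 2 technical spreads and dashed lines are 1.5-fold; red points lie past the band, which are Hspa5, Atf6 and Ern1 in the second panel, Hspa5, Ddit3 and Trib3 in the third and Trib3 in the last, and no point reaches 1.5-fold.

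Without TNF, Ddit3 and Trib3 differed most between the genotype labels. Ddit3 read 18.6 in control cells and 13.3 on the cKO-labelled array, a ratio of 0.712 and a log2 difference of -0.49. Trib3 read 82.4 and 60.7, a ratio of 0.736 and a difference of -0.44. Hspa5 read 112.6 and 92.9, a difference of -0.28. The spots of Ddit3 and Hspa5 on the cKO-labelled array lay in a patch, and the effect of the patch on these readings was not tested. With spots in patches left out neither gene has a value, and Trib3 was still lower by 0.44.

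The remaining genes were within 2 technical spreads between the labels without TNF. Xbp1 differed by -0.21, Atf4 by -0.21 and -0.26 with its 2 probes, Dnajb9 by -0.18, Ern1 by -0.14, Atf6 by -0.12 and Hsp90b1 by -0.02. The Xbp1 spot of the control array lay in a patch. Creb3l2 was higher on the cKO-labelled array by 0.07.

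None of the 10 genes was past 2-fold or 1.5-fold between the labels without TNF, beside 7.66% and 13.6% of 24276 genes tested. With both arrays required to be well above background, 355 of 20735 genes were higher past 2-fold and 385 lower. Past 2 technical spreads, 3 of the 10 genes were lower and 0 higher, beside 11.3% and 14.3% of all genes. The median of the 10 genes was -0.19, with 1 gene above 0 and 9 below, beside a median of 0.01 over all genes. With no scaling, 8 genes were below 0, since Hsp90b1 turned to 0.03. Relative to all genes the median of the 10 genes lay between -0.20 and -0.15 in each scaling, background, filter and patch alternative. Ddit3 and Trib3 were past 2 technical spreads in each scaling and background alternative, and Hspa5 was not in any of those other than the scaling used here.

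The cKO-labelled array without TNF gave the lowest of the 4 signals for 9 of the 10 genes, beside 28.4% of all genes well above background on the 4 arrays. The count was 6 of 10 with no scaling and after quantile normalization, beside 14.8% and 25.3%. This array enters both the TNF comparison on the cKO-labelled arrays and the label comparison without TNF, so a low reading on it is a higher reading with TNF in the first and a lower reading for the label in the second.

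Markers of cell type differed between the same arrays. The chondrocyte markers, whose summed signal was 1665 and 1590 on the control arrays without and with TNF, summed to 1331 and 1361 on the cKO-labelled arrays. Between the arrays without TNF, 4 of 10 were lower past 1.5-fold on the cKO-labelled array (Acan, Matn1, Col9a1 and Cnmd), beside 13.6% of all genes in either direction. The control spot of Col9a1 lay in a patch. The median of the 10 chondrocyte markers was -0.41, while Col2a1 differed by -0.03. The fibroblast markers summed to 1289 and 1331 in control cells and to 1210 and 1207 on the cKO-labelled arrays. Between the arrays without TNF, 3 of 8 were lower past 2 spreads and 0 higher, beside 11.3% and 14.3% of all genes, with a median of -0.21. The 3 were Thy1 by -1.59, Postn by -0.38 and Dcn by -0.44, the last with its control spot in a patch. The leukocyte markers summed to 35.9 to 44.7 over the 4 arrays, largely the signal of the Itgam probe, which read 31.8 to 40.3. The sum is therefore no reading of the other leukocyte markers. Each sum is over the same probes on every array. Between the arrays without TNF, 3 of 8 leukocyte markers tested were past 1.5-fold, beside 13.6% of all genes in either direction. Lyz2 differed by -2.11, with its control spot in a patch. Tyrobp differed by -1.61, a bound since it was not well above background on the cKO-labelled array, and Adgre1 by 2.87, with its spot there in a patch. The part of these markers in the lower UPR signals was not tested, and in bulk RNA fewer cells of a type and less RNA per cell cannot be told apart.

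With TNF, the labels differed little in the 10 genes. Trib3 read 77.5 in control cells and 61.4 on the cKO-labelled array, a log2 difference of -0.34. It was the single gene past 2 technical spreads, and it was within them with another background correction, normexp. Ern1 was higher on the cKO-labelled array by 0.27, just inside the limit of 0.281. Hspa5 read 113.7 and 114.1, and Atf4 read 233.3 and 233.5 with its brighter probe, so both genes were level by these probes. The other Atf4 probe read 8.27 and 6.93, a difference of -0.25, within 2 spreads with the scaling used here. Under each other scaling it was past that limit, with -0.31 after quantile normalization. None of the 10 genes was past 2-fold or 1.5-fold, beside 4.23% and 10.1% of 24511 genes tested. With both arrays required to be well above background, 168 of 21903 genes were higher past 2-fold and 300 lower. Past 2 spreads 1 of the 10 genes was lower and 0 higher, beside 10.3% and 14.7% of all genes. The median was -0.03, with 4 genes above 0 and 6 below, beside 0.06 over all genes. With no scaling it was -0.10, with 2 above and 8 below, beside -0.01 over all genes, and after quantile normalization -0.11, also with 2 above and 8 below. Of the 10 NF-κB targets, 8 were lower past 1.5-fold on the same array, with a median of -1.17.

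**Figure D3:**
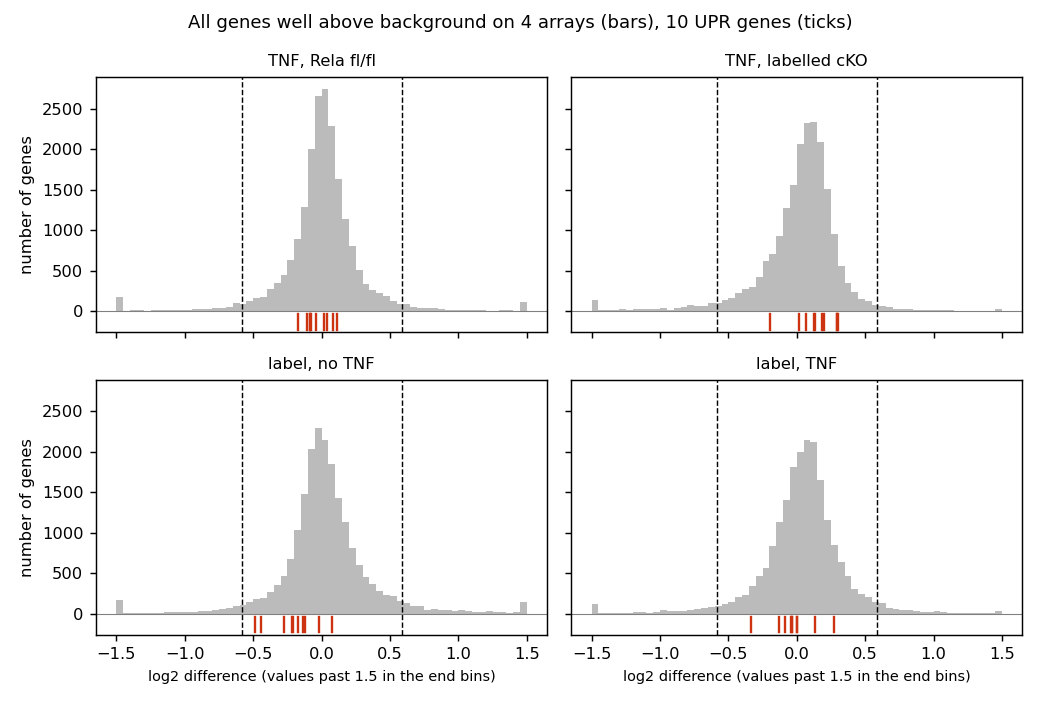
Number of genes (y axis) by log2 difference (x axis, bins of 0.05) among the 20481 genes well above background on all 4 arrays, in the 4 comparisons; dashed lines are 1.5-fold and values past 1.5 are placed in the end bins. Red ticks below the bars are the 10 UPR genes, which lie to the left of 0 for 9 genes in the label comparison without TNF and to the right of 0 for 9 genes in the TNF comparison on the cKO-labelled arrays, with the scaling used here.

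The second probe of Dnajb9 (A_66_P133450) gave a different picture from the first. It read 0.157 in control cells without TNF and 0.205 with it, and 0.178 and 0.251 on the cKO-labelled arrays. It was higher with TNF by 0.38 and 0.50 on the log2 scale, where the brighter probe gave 0.11 and 0.20. Its difference between the labels was 0.18 without TNF and 0.29 with it, opposite in sign to the -0.18 and -0.09 of the brighter probe. The 0.38, 0.50 and 0.29 were past 2 technical spreads, so the counts for the 10 genes depend here on which probe stands for Dnajb9. It was dim, and its 4 spots lay outside patches. With the normexp background correction, its differences with TNF were 0.15 and 0.34, and after quantile normalization they were 0.46 and 0.70. The 0.29 between the labels with TNF fell within 2 spreads with no scaling, with the authors' scaled values and with normexp. After quantile normalization it was 0.38.

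Genes whose 4 signals moved most like those of Hspa5 were sought among 97 pathway genes, by the root mean square difference of log2 signals centred on the mean of each gene over the 4 arrays. Sdf2l1, an ER co-chaperone, was nearest at 0.05, followed by the chaperone Canx at 0.05 and the BCL2-family gene Bbc3 at 0.06. Among the 10 genes themselves, Dnajb9 (0.05) and Xbp1 (0.06) were nearest to Hspa5, and Trib3 (0.16) and Creb3l2 (0.20) were farthest. With 4 arrays and values of the order of the technical spread, these are descriptions of the arrays. The spots of Hspa5 and Sdf2l1 on the cKO-labelled array without TNF and of Canx on the control array with TNF lay in patches, whose part in the likeness was not tested.

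The wider pathway was described from gene lists. Of 20 ER chaperones and folding enzymes, all well above background on 4 arrays, 0 were past 1.5-fold in any of the 4 comparisons. With TNF, Ero1a, an oxidase that forms disulfide bonds, was higher by 0.52 in control cells and by 0.30 on the cKO-labelled arrays. Hyou1, an ER chaperone of the HSP110 family, read 0.443 without TNF, from a spot in a patch, and 0.351 with it in control cells, a difference of -0.34. Sdf2l1 was higher on the cKO-labelled arrays by 0.28, with its spot on the array without TNF in a patch. The medians of the list were 0.05 and 0.14 with TNF in the control and cKO-labelled arrays, and -0.13 between the labels without TNF. The 0.14, beside 0.06 over all genes, became 0.04 with no scaling and 0.0001 after quantile normalization. With no scaling, neither Ero1a nor Sdf2l1 was past 2 spreads on the cKO-labelled arrays. Past 2 spreads between those labels, 3 of 20 were lower and 0 higher, beside 11.3% and 14.3% of all genes. These were Hyou1, with its control spot in a patch, the collagen chaperone Serpinh1 and the prolyl isomerase Ppib, named after their values were seen, which differed by -0.52, -0.32 and -0.29. Serpinh1 was within 2 spreads after quantile normalization and Ppib with no scaling, and Hyou1 has no value with patches left out.

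Genes that remove misfolded proteins or move new ones also stayed within 1.5-fold, in 15 of 15 ERAD genes and 17 of 17 translocation and vesicle transport genes. Edem2, which marks glycoproteins for degradation, was higher with TNF in control cells by 0.29, and Selenos differed by -0.22 with its spot on the array without TNF in a patch. On the cKO-labelled arrays, Derl3 and Edem1 differed by -0.26 and -0.20 with TNF. Herpud1, an ERAD gene known as a UPR target, read 36.5 and 33.3 in control cells without and with TNF and 28.2 and 29.9 on the cKO-labelled arrays. It was lower by 0.37 on the cKO-labelled array without TNF, past 2 spreads. Sec23a, a coat protein of ER vesicles known as a target of BBF2H7, differed by 0.04 and 0.09 with TNF. Between the labels without TNF, the median was 0.01 for the ERAD genes and -0.06 for the transport genes. Srp54a and Srprb differed by -0.31 and -0.15 in control cells, the former with a spot in a patch, and Sec61a1 and Sec61b by 0.23 and 0.20 on the cKO-labelled arrays.

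Among 10 other sensors, eIF2α kinases and phosphatase subunits, Eif2ak3 (PERK) differed by -0.03 and -0.07 with TNF. Mbtps2, a protease that cuts ATF6, differed by 0.16 and 0.43, and Ppp1r15b by -0.12 in control cells. A second Mbtps2 probe, not well above background in control cells without TNF, read brighter with TNF on a spot in a patch. Atf6b, a relative of Atf6, read 1.11, 1.12 and 1.07 on 3 arrays and 2.56 on the cKO-labelled array without TNF, where its spot lay in a patch. It was the single gene of this list past 1.5-fold, with -1.26 for TNF on the cKO-labelled arrays and 1.20 between the labels without TNF, where the median of the list was -0.01. Ppp1r15a (GADD34), a regulatory subunit of the eIF2α phosphatase named after its values were seen, read 34.4 and 31.8 in control cells without and with TNF and 24.0 and 27.8 on the cKO-labelled arrays. None of its spots lay in a patch, and its difference of -0.52 between the labels without TNF was past 2 spreads in each scaling, background and patch alternative.

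The medians of 20 targets of ATF4 and CHOP differed in sign between the 2 pairs of arrays. With TNF, 4 were lower past 2 spreads and 0 higher in control cells, with a median of -0.13, beside 9.80% and 9.39% of all genes. On the cKO-labelled arrays 5 were higher and 0 lower, with a median of 0.17, beside 11.1% and 12.7% of all genes and a median of 0.06. With no scaling, the 5 became 2 (Stc2 and Atf3) and the median 0.07, and the all-gene median was -0.05. After quantile normalization they were 3 and 0.04. Chac1, which degrades glutathione, read 51.4 and 37.6 in control cells without and with TNF and 35.4 and 39.7 on the cKO-labelled arrays. Slc7a11, the cystine transporter, differed by -1.53 with TNF in control cells, where the spot without TNF lay in a patch, and it was the single gene of the list past 1.5-fold. On the cKO-labelled arrays, the secreted factor Stc2 and the transcription factor Atf3 were higher with TNF by 0.50 and 0.48. Between the labels without TNF, 6 of the 20 were lower past 2 spreads and 0 higher, with a median of -0.21, beside 11.3% and 14.3% of all genes. The 6 included Slc7a11, with its control spot in a patch. Between the labels with TNF, 3 were higher past 2 spreads (Psat1, Phgdh and Slc7a11), beside 14.7% of all genes. Lower past 2 spreads were 2 (Nupr1 and Ddit4, the latter with its control spot in a patch), beside 10.3%. The median was 0.08, beside 0.06 over all genes. The difference of these TNF changes between labels was not tested, and the comparisons share arrays.

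Of 4 genes of the CREB3 and OASIS family beside Creb3l2, 3 were well above background on all 4 arrays. Creb3l4 was higher with TNF by 0.53 in control cells and differed by -0.02 on the cKO-labelled arrays, and Creb3l1 (OASIS) differed by 0.09 and 0.15. Creb3l3, named after its values were seen, was not well above background on either array without TNF. With TNF it was higher on the cKO-labelled arrays by at least 0.77 on the log2 scale, with a signal of 0.061, and was not higher in control cells, where it read 0.0415 without TNF and 0.0395 with it. Between the labels with TNF, Creb3l4 was lower by 0.60 and Creb3l3 higher by 0.63, both past 1.5-fold and, in each scaling and background alternative, past 2 spreads. Both were dim, with signals of 0.218 and 0.144 for Creb3l4 and 0.0395 and 0.061 for Creb3l3. Whether the technical spread holds at such signals was not tested. Of 11 cytosolic heat shock genes, 0 were past 1.5-fold in any comparison. In control cells, Hspe1 and Hsp90aa1 differed by -0.11 and 0.10 with TNF. On the cKO-labelled arrays, Hspd1 and Hsp90aa1 differed by 0.29 and 0.22, and the median of the list was 0.17 there, beside 0.16 for the 10 UPR genes and 0.06 over all genes. With no scaling the list and the 10 genes had medians of 0.06 and 0.05, and after quantile normalization 0.03 and 0.06. Between the labels without TNF, the median was 0.02 for the heat shock genes and 0.0015 for the CREB3 and OASIS family.

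**Figure D4:**
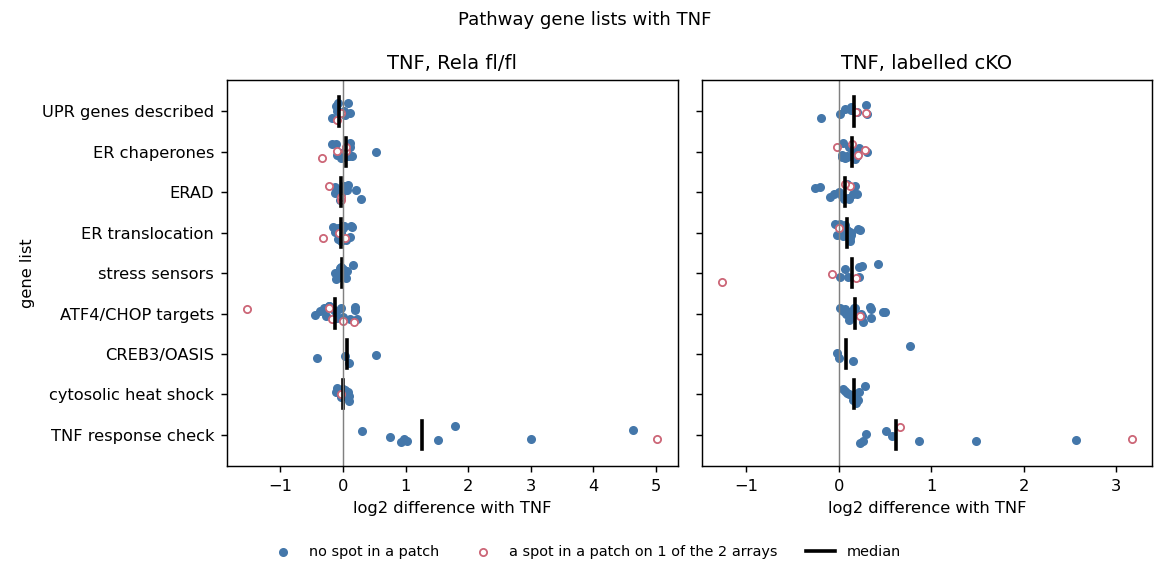
Log2 difference with TNF (x axis) of each gene in 9 lists (rows), in control cells (left) and on the cKO-labelled arrays (right); black bars are medians and open red circles are genes with a spot in a patch on 1 of the arrays compared. The medians of the UPR and ER lists lie between -0.13 and 0.17 and their far points are Slc7a11 and Atf6b, with spots in patches, and Creb3l3, with none, while the NF-κB targets in the bottom row reach 5.02 and 3.17 (Ccl2).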

How the data were processed

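Labelled RNA was read on 1-colour Agilent arrays. The authors deposited spot intensity values from Agilent Feature Extraction 10.10.1.1 (submitters' processing notes), which corrects background and flags spots, and a table of scaled intensity, equal to the same values times 1 factor per array (1.77 to 1.83). Here the log2 intensity of a spot was set against the 75th percentile over transcript spots on its array (590 to 634 intensity units), control and outlier spots were left out, and spots of a probe were averaged. The files hold accessions and no symbols, and 98.2% of 20809 NM accessions were named through RefSeq GRCm38.p6. The array headers name another build, mm9, and coordinates given are those of GRCm38.p6. Where a gene had several probes, the brightest on average was used, and all probes of members are given. Of the probes kept, 50.9% to 58.1% were well above background on an array. A gene was tested where 1 array of the pair was well above background, with any signal not well above background and below the lowest that was raised to that lowest signal, and for the limit of 2 technical spreads where both were. The number of arrays limits the precision. A spot lies in a patch when at least 3 spots within 5 rows and 2 columns were at least 2-fold brighter on that array than on the others.

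Genes named beside the members and Eif2ak3, Sec23a and Herpud1 are the 2 of each list with the largest difference with TNF in each genotype label, among genes well above background on 4 arrays. Further genes past 2 spreads were named after their values were seen. The members, lists and tests were chosen with earlier results of these data known, and the patch rule and the limit of 2 spreads after seeing the data. The 2-fold counting rule was run on simulated data with 200 genes changed well past that limit and technical noise only. This does not bear on the 1.5-fold limit, the limit of 2 spreads or differences of the size seen in the members. Alternatives were quantile normalization, no scaling, the authors' scaled values, the normexp background with an offset of 50, another percentile, other filters, the mean over probes and leaving out patches. Python 3.11.15, numpy 2.4.6, pandas 2.3.3, R 4.3.3 and limma 3.58.1 were used.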

Additional observations from a re-analysis of the deposited data

Results flagged for a closer look

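For 1 probe each of 5 genes the 2 pairs of arrays moved in opposite directions with TNF, lower in control cells and higher on the cKO-labelled arrays, and the difference was not tested. The log2 change on the cKO-labelled arrays exceeded that in control cells by 0.41 for Ern1, 0.36 for Ddit3, 0.21 for the brighter probe of Atf4 (A_55_P1979728), 0.17 for Xbp1 and 0.10 for Trib3. The changes in control cells lay within 1 technical spread of 0 for all of these but Ddit3. The spots of Ddit3 on the cKO-labelled array without TNF and of Xbp1 on the control array without TNF lay in patches, and the second Atf4 probe (A_51_P464238) differed by -0.06 with TNF in both pairs. These values depended on the scaling between arrays. With no scaling they were 0.29 for Ern1, 0.24 for Ddit3, 0.10 for Atf4, 0.05 for Xbp1 and -0.0086 for Trib3. The signs of the pairs were no longer opposite for Trib3 under each other scaling and for Xbp1 after quantile normalization. Hspa5 also became lower in control cells and higher on the cKO-labelled arrays after quantile normalization, with the authors' scaled values and with the percentile over probes well above background on all arrays, and Atf6 with the last of these. Hsp90b1 had opposite signs the other way, higher in control cells and lower on the cKO-labelled arrays, under each other scaling, with 0.09 and -0.04 with no scaling. For Ern1, Ddit3 and the brighter Atf4 probe they were opposite under each scaling and background alternative.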

How the results depend on the processing

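No paired analysis was possible because each group has 1 array, and for the same reason no replicate could be left out. The count of 0 of 10 genes past 2-fold held in each comparison under each alternative chosen at the start. Under the added limit of 2 technical spreads, the counts with TNF on the cKO-labelled arrays were 3, and 2 after quantile normalization (Atf6, Ern1), 1 with no scaling, with the authors' scaled values and with the percentile over probes well above background on all arrays (Creb3l2, lower), 2 with normexp (Hspa5 higher, Creb3l2 lower) and 2 with patches left out. Between the labels without TNF they were 3, then 2 (Ddit3, Trib3) under each other scaling and normexp, and 1 with patches left out, which leaves 6 of 10 genes with a value. Between the labels with TNF they were 1 (Trib3) under each of these and 0 with normexp, with the brighter probes standing for Atf4 and Dnajb9. With TNF in control cells they were 0 under each of these, with the brighter probe standing for Dnajb9. Of 240 probe values under the scaling and background alternatives, 232 moved by less than 1 technical spread, 7 by more, and 1 turned its sign from past 1 spread, the second Dnajb9 probe between labels without TNF, from 0.18 to -0.0027 with normexp. The cause was not tested. Other scalings also turned the sign of Hspa5 and Atf6 in control cells with TNF, of Hsp90b1 between labels without TNF and of Hspa5 and Atf4 between labels with TNF, all within 0.05 of 0 as reported. Only technical error within an array was available.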
